A study of Mus musculus with 8 samples.

Results

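The cyclin-dependent kinase (CDK) inhibitor family was taken as 7 genes, *Cdkn1a*, *Cdkn1b*, *Cdkn1c*, *Cdkn2a*, *Cdkn2b*, *Cdkn2c* and *Cdkn2d*, found by symbol among the 50600 genes of the count table. All 7 passed a filter that asked for 10 counts or more in 2 or more of the 8 libraries. RNA was sequenced from NF1-MET, a mouse malignant peripheral nerve sheath tumor (MPNST) line with amplified *Met*, and from NF1-MET;sgP53, the line made from it by lentiviral CRISPR-Cas9 editing of *Trp53*, which GEO's records list as WT and Trp53 KO. Each line was grown for 24 h with DMSO (vehicle) or with 100 nM capmatinib, which inhibits the MET kinase, in 2 replicate wells for each of the 4 groups. The parental tumor model carried Nf1 fl/ko, a lox-stop-lox MET transgene and Plp-creERT, which drives an inducible Cre from the Plp promoter of Schwann lineage cells, so both lines share these alleles, and transduced cells were selected with puromycin. Whether NF1-MET;sgP53 was kept as a pool or cloned is not given in the sources used here. Each genotype was 1 line, so p53 loss and any other difference between the lines cannot be told apart. The columns of the NF1-MET libraries carry the letters EV, and whether these cells had received the empty vector is not given in the sources used here.

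CDK inhibitors are small proteins that restrain the kinases driving cells from one phase of the cell cycle to the next. The CIP/KIP members p21 (*Cdkn1a*), p27 (*Cdkn1b*) and p57 (*Cdkn1c*) bind complexes of cyclins with CDK2 and other CDKs. The INK4 members p16 (*Cdkn2a*), p15 (*Cdkn2b*), p18 (*Cdkn2c*) and p19 (*Cdkn2d*) bind CDK4 and CDK6 and keep D-type cyclins away, so that the retinoblastoma protein stays active and E2F factors stay bound. *Cdkn1a* is a classic target of p53, and *Cdkn2a* also encodes ARF, which stabilizes p53. *Cdkn2a* is among the genes most often lost in human MPNST, and p27 is known to accumulate when growth factor signaling is withdrawn.

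The targeted gene was checked first. *Trp53* stood at 182 and 193 CPM (counts scaled to library size) in NF1-MET vehicle, 126 and 128 in NF1-MET capmatinib, 97.5 and 100.1 in NF1-MET;sgP53 vehicle and 68.0 and 68.8 in NF1-MET;sgP53 capmatinib. Both edited groups lay below both NF1-MET groups, and the log2 fold change between the lines was −0.94 in vehicle (adjusted p = 2.48e-14) and −0.89 in capmatinib (adjusted p = 4.78e-13). Transcripts therefore remained in the edited line, and the table does not show whether they carry edits. *Met* itself was lower in capmatinib in both lines, with log2 fold changes of −0.64 and −0.47.

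The libraries held 30.1 M to 42.8 M counts, and the median squared difference between replicates of a group was 1.54 to 1.78 times that of counting noise, with a biological coefficient of variation of 2.34% to 4.28%. The abundant transcript *Gm42418* took 1.11% to 13.1% of the counts of a library, and 10% and 1.11% in the NF1-MET;sgP53 capmatinib replicates. The TMM scaling of CPM is meant to offset such differences, and what changed without this transcript is given below. Of 12 Schwann lineage markers 6 could be tested. The defining genes *Sox10* and *S100b* were near 0, at 0 to 0.175 and 0.0827 to 0.491 CPM. The summed level of the list was 36.8 to 43.5 CPM in vehicle and 74.4 to 81.2 CPM in capmatinib, but the markers split. As group means in NF1-MET and NF1-MET;sgP53, *Egr2* rose from 16.1 and 18.9 CPM to 73.9 and 67.4 CPM, and *Gap43* fell from 18.4 and 21.6 CPM to 2.84 and 3.76 CPM (log2 fold changes −2.72 and −2.52). Summed immune, endothelial and epithelial markers stayed at or under 2.12, 0.358 and 0.187 CPM in every library, with *Ptprc*, *Pecam1* and *Epcam* at or under 0.182, 0.165 and 0.164 CPM. The part of the Schwann markers in any result below was not tested. All values are from bulk RNA, in which more transcript per cell and more cells with the transcript cannot be told apart.

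Across genes, levels were compared as CPM per kb of merged exon. *Cdkn2b* had the highest level in every group, at 64.2 ± 3.93 in NF1-MET vehicle, 58.2 ± 1.12 in NF1-MET capmatinib, 48.9 ± 0.600 in NF1-MET;sgP53 vehicle and 60.5 ± 3.33 in NF1-MET;sgP53 capmatinib (CPM per kb, mean ± SD, n = 2). *Cdkn1c* was lowest throughout, at 0.223 to 0.728 CPM per kb as group means. In NF1-MET vehicle the order was *Cdkn2b*, *Cdkn1a*, *Cdkn2c*, *Cdkn2d*, *Cdkn1b*, *Cdkn2a* and *Cdkn1c*, and *Cdkn1b* and *Cdkn2a* did not differ beyond their spread. In NF1-MET capmatinib it was *Cdkn2b*, *Cdkn2c*, *Cdkn1b*, *Cdkn1a*, *Cdkn2d*, *Cdkn2a* and *Cdkn1c*, with no overlap between neighbors. In NF1-MET;sgP53 vehicle it was *Cdkn2b*, *Cdkn2c*, *Cdkn2d*, *Cdkn1b*, *Cdkn2a*, *Cdkn1a* and *Cdkn1c*, and *Cdkn2a* and *Cdkn1a* did not differ beyond their spread. In NF1-MET;sgP53 capmatinib it was *Cdkn2b*, *Cdkn2c*, *Cdkn1b*, *Cdkn2d*, *Cdkn2a*, *Cdkn1a* and *Cdkn1c*, again without overlap. *Cdkn1a* thus moved from the second place in NF1-MET vehicle to the sixth in NF1-MET;sgP53. Dividing by the longest transcript instead (for *Cdkn1a* 2080 bases, beside 3553 of merged exon) kept 18 of the 28 places. In NF1-MET;sgP53 vehicle *Cdkn1a* then stood above *Cdkn2d*, *Cdkn1b* and *Cdkn2a*, so its sixth place there depends on the length used.

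**Figure D1:**
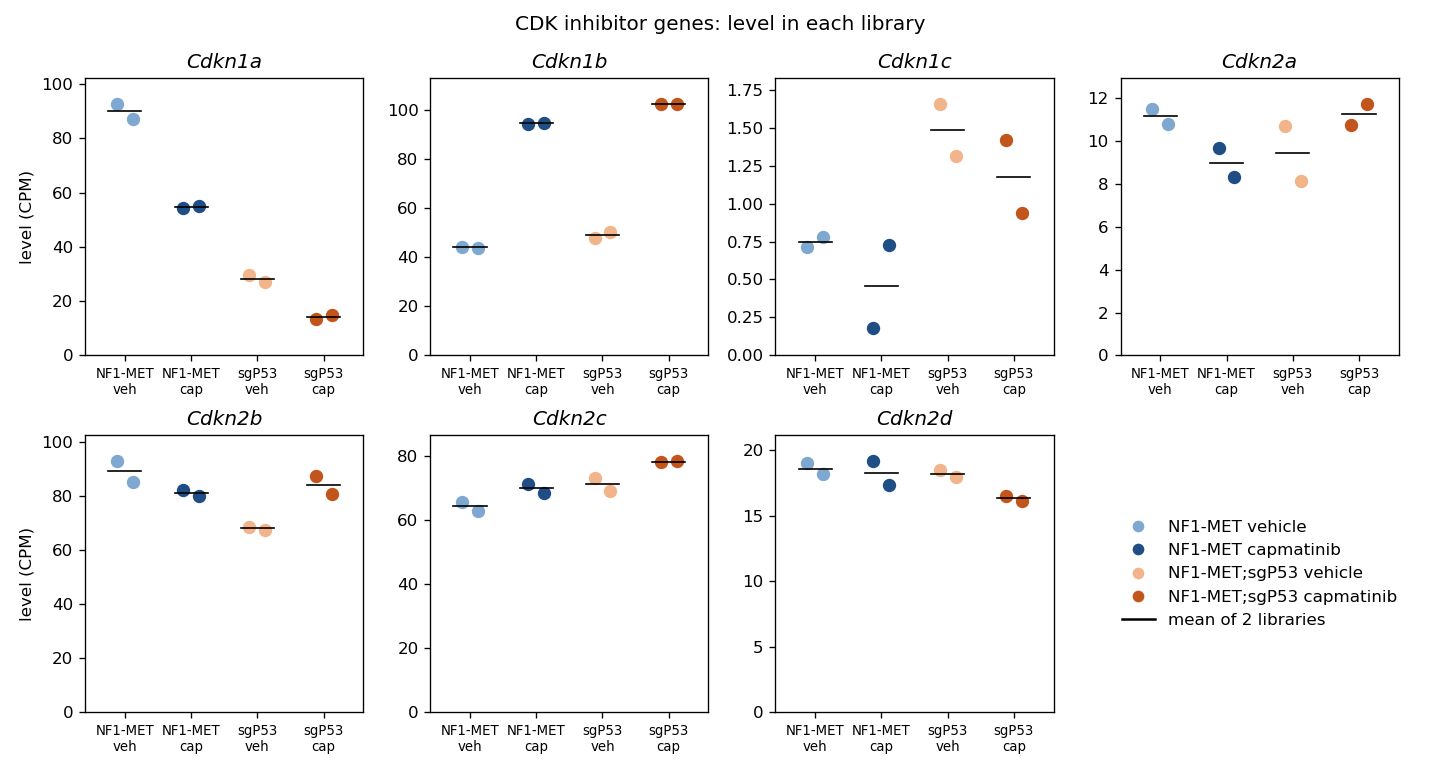
Level of each CDK inhibitor gene in each of the 8 libraries (vertical axis, CPM, from 0, with its own scale in each panel), by line and treatment (horizontal axis; veh, vehicle; cap, capmatinib; sgP53, NF1-MET;sgP53). Points are libraries and lines are means of 2: *Cdkn1a* steps down from 90.1 to 14.1 CPM over the 4 groups, *Cdkn1b* lies at 43.9 to 50.1 CPM in vehicle and 94.4 to 103 CPM in capmatinib in both lines, and the 2 capmatinib libraries of *Cdkn1c* in NF1-MET lie far apart.

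Genes were called where edgeR's quasi-likelihood test gave an adjusted p, over all genes tested, under 0.05. Capmatinib in NF1-MET gave 5 of 7 members called, where 70.2% of all genes were called: 2 were higher and 3 lower, beside 35.5% and 34.7% of all genes. In NF1-MET;sgP53 it gave 6 of 7 called, where 67.6% of all genes were called: 4 were higher and 2 lower, beside 34.2% and 33.4%. NF1-MET;sgP53 against NF1-MET gave 5 of 7 called in vehicle, where 23.2% of all genes were called, with 3 higher and 2 lower beside 10.9% and 12.3%. In capmatinib it gave 4 of 7, where 12.3% were called, with 3 higher and 1 lower beside 5.94% and 6.34%. DESeq2's Wald test gave 2 for the lines in each treatment, where 1933 genes in vehicle and 870 in capmatinib were called. Library totals gave 3 in vehicle, where 2023 genes were called. The interaction, which is the capmatinib response in NF1-MET;sgP53 minus that in NF1-MET, was called for 3 of 7, where 9.71% of all genes were called, with 2 higher and 1 lower beside 3.85% and 5.86%. The median log2 fold change of the members with capmatinib was −0.16 in NF1-MET cells and 0.14 in NF1-MET;sgP53, beside 0.0020 and 0.0049 over all genes. For the interaction, the median over all genes was −0.026, and 0.0095 without *Gm42418*. Calls over all genes were then more often higher than lower, the reverse of the balance given above.

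**Figure D2:**
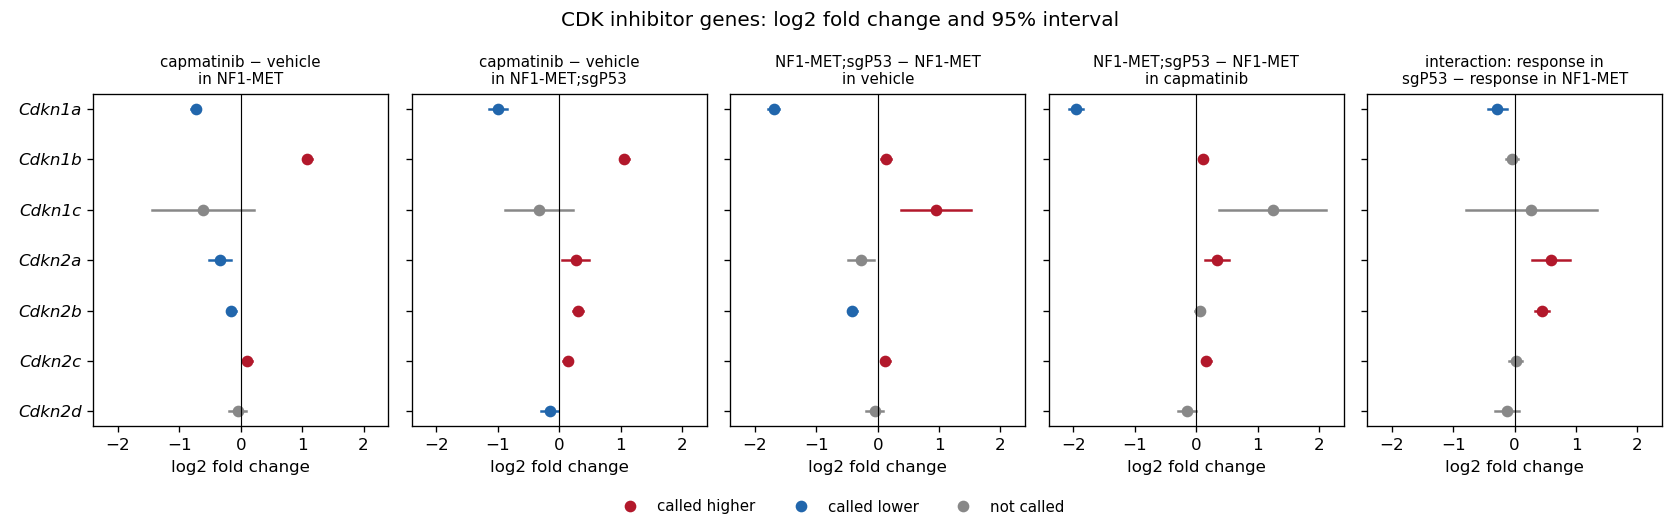
Log2 fold change of each CDK inhibitor gene (horizontal axis) with its 95% interval, in the 4 pairwise comparisons and the interaction (panels). Red points were called higher, blue lower and gray not called: *Cdkn1a* is called lower in all 5 panels, *Cdkn1b* is near 1 in both capmatinib panels, and *Cdkn2a* and *Cdkn2b* lie on opposite sides of 0 in the capmatinib panels of the 2 lines.

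*Cdkn1a* (ENSMUSG00000023067, chr17:29090976-29100727 of mm10, plus strand, 4 merged exons) encodes p21. It stood at 92.9 and 87.2 CPM in NF1-MET vehicle, 54.4 and 55.0 in NF1-MET capmatinib, 29.5 and 27.1 in NF1-MET;sgP53 vehicle and 13.4 and 14.8 in NF1-MET;sgP53 capmatinib. The 4 groups did not overlap, and in each line the capmatinib libraries were the lower ones. In vehicle, the edited line had 0.310 times the NF1-MET level (log2 fold change −1.69, SE 0.0439, adjusted p = 3.16e-16), and 0.304% of all genes tested had an equal or lower value. In capmatinib it had 0.258 times the NF1-MET level (log2 fold change −1.95, SE 0.0536, adjusted p = 1.39e-13), a value that 0.159% of genes reached. *Cdkn1a* also fell in capmatinib, to 0.601 times the vehicle level in NF1-MET (log2 fold change −0.73, SE 0.0367, adjusted p = 5.05e-18) and to 0.4996 times in NF1-MET;sgP53 (log2 fold change −1.001, SE 0.0684, adjusted p = 1.44e-11). A transcript on the other strand, AC167363.2, shares 273 exon bases with *Cdkn1a*. These 4 calls held under every alternative run and without any 1 library. The fall was larger in the edited line by an interaction of −0.28 (95% interval −0.44 to −0.13, adjusted p = 0.0148), a call that was lost with library totals, with DESeq2's Wald test and without NF1-MET vehicle replicate 2 (−0.24), NF1-MET;sgP53 vehicle replicate 1 (−0.22) or NF1-MET;sgP53 capmatinib replicate 1 (−0.22).

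The stretches upstream of *Cdkn1a* and of *Cdkn1b* are shown because these 2 members had the largest called changes, one between the lines and with capmatinib, the other with capmatinib in both. Both come from RefSeq (GRCm38.p6), plus strand, 5′ to 3′, and end at the base before the annotated gene start. They are chr17:29090729-29090975 for *Cdkn1a*, with a match to the p53 consensus in capitals, and chr6:134920151-134920400 for *Cdkn1b*, with the SP1 letters GGGCGG in capitals.
Cdkn1a: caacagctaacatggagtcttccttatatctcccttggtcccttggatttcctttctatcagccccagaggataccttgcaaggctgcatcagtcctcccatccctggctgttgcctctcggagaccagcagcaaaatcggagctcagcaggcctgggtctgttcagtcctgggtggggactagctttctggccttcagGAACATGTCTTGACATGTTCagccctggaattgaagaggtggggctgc
Cdkn1b: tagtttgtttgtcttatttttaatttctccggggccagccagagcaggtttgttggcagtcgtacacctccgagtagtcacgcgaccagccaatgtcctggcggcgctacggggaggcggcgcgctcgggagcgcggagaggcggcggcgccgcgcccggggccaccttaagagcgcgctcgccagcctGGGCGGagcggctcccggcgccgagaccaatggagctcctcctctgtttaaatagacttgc
The p53 consensus was searched by name on both strands, with its core letters intact, no spacer and at most 1 mismatch. Of 32851 windows of 250 bases before annotated starts, 15 held it (0.0457%), and 1 of them was the more upstream of the 2 *Cdkn1a* windows, where the match begins 51 bases before the RefSeq start. Of the genes with those 15 windows, 4 were tested, and only *Cdkn1a* among them was called between the lines. *Rps27l*, *Calhm2* and *Sptbn4* had log2 fold changes of −0.02, 0.10 and −0.27 in vehicle and were not called. SP1 letters lay in 32.7% of all windows and in 5 of the 9 windows that RefSeq gave for 6 of the members (*Cdkn1a*, *Cdkn1b*, *Cdkn2a*, *Cdkn2c* and *Cdkn2d*, in 1 window each). E2F letters (TTTCCCGC or TTTGGCGC) lay in 1.3% of all windows and in 1 of *Cdkn2a*. The letters of AP-1 (TGANTCA), in 6.75% of all windows, of the E-box (CACGTG), in 6.02%, of FOXO (GTAAACA), in 3.17%, of a start box (TATAAA), in 12.4%, and of TEAD (GGAATG), in 12.6%, lay in no member window. These matches are descriptions of letters in these windows and not of binding. *Cdkn1c* was not searched here.

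*Cdkn1a* was set beside 16 other p53 targets that could be tested, from a list of 17. In vehicle, 9 of the 16 were called lower in NF1-MET;sgP53 and the other 7 were not called, where 12.3% of all genes were lower, with a median log2 fold change of −0.22. In capmatinib 8 were called lower and the other 8 were not called, where 6.34% of all genes were lower, with a median of −0.22. *Eda2r*, a receptor of the TNF receptor family, fell from 17.4 to 4.43 CPM in vehicle (log2 fold change −1.99), *Trp53inp1*, a p53-induced nuclear protein, from 10.8 to 2.97 CPM (−1.87) and the cyclin *Ccng1* from 176.0 to 77.6 CPM (−1.20). In capmatinib *Ccng1* (−0.78), *Phlda3* (−0.65), an inhibitor of AKT, and *Zmat3* (−0.53), an RNA-binding protein, were the largest falls above 10 CPM. The puma gene *Bbc3*, *Bax* and *Fas*, which act in cell death, were not called in either treatment. These 3 were picked after their values were seen and do not stand for all cell death genes of the list.

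**Figure D3:**
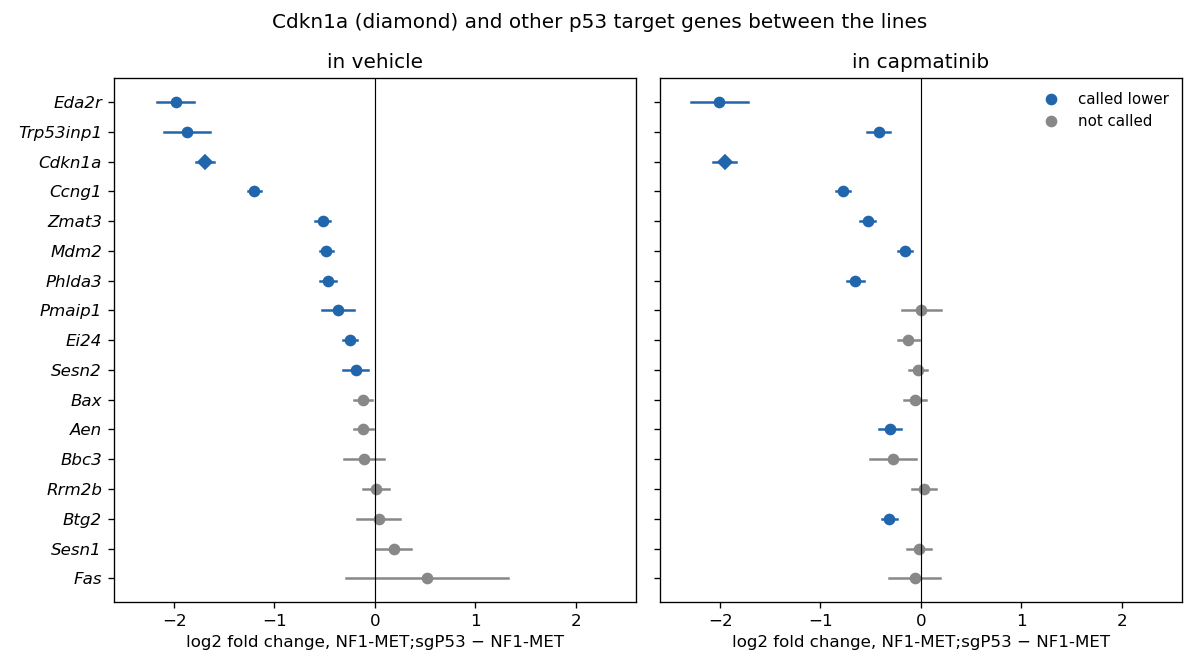
Log2 fold change of NF1-MET;sgP53 against NF1-MET (horizontal axis) with its 95% interval for *Cdkn1a* (diamond) and the 16 other p53 targets tested, in vehicle (left) and in capmatinib (right). Blue was called lower and gray not called: *Cdkn1a* lies at −1.69 and −1.95, while *Trp53inp1* lies at −1.87 in vehicle and closer to 0 in capmatinib.

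With capmatinib these targets moved in both directions. Of the 16, 7 were called higher and 7 lower in NF1-MET, and 7 higher and 5 lower in NF1-MET;sgP53, beside 35.5% and 34.7%, and 34.2% and 33.4%, of all genes. *Btg2*, an antiproliferative gene, rose from 6.61 to 90.5 CPM in NF1-MET (log2 fold change 3.76) and from 6.90 to 72.7 CPM in NF1-MET;sgP53 (3.40). *Trp53inp1* rose by 1.38 and 2.82 on the log2 scale, with an interaction of 1.43 (adjusted p = 5.29e-09), while that of *Btg2* was −0.37 (adjusted p = 0.0119). Of the 16 targets, 3 were called higher and 2 lower in the interaction, beside 3.85% and 5.86% of all genes. *Eda2r* fell in both lines, as *Cdkn1a* did, from 17.4 to 7.65 CPM in NF1-MET (−1.20) and from 4.43 to 1.90 CPM in NF1-MET;sgP53 (−1.22).

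*Cdkn1b* (ENSMUSG00000003031, chr6:134920401-134925513, plus strand, 2 merged exons) encodes p27. It stood at 44.3 and 43.9 CPM in NF1-MET vehicle, 94.4 and 94.7 in NF1-MET capmatinib, 47.9 and 50.1 in NF1-MET;sgP53 vehicle and 103 and 102 in NF1-MET;sgP53 capmatinib. Every capmatinib library was above every vehicle library, whatever the line. The rise with capmatinib was 2.12-fold in NF1-MET (log2 fold change 1.08, SE 0.0356, adjusted p = 6.73e-23) and 2.09-fold in NF1-MET;sgP53 (log2 fold change 1.06, SE 0.0346, adjusted p = 3.01e-17). Values at or below these were found in 89.1% and 89.8% of all genes, so that about 1 gene in 10 rose more. The interaction was −0.04 (95% interval −0.13 to 0.06, adjusted p = 0.685), so any difference between the 2 responses was bounded to that interval. Both rises held under every alternative and without any 1 library. The line differences were small, at log2 fold changes of 0.13 in vehicle (adjusted p = 0.0222) and 0.12 in capmatinib (adjusted p = 0.0103). Neither was called with library totals or DESeq2's Wald test. The vehicle call was lost without NF1-MET vehicle replicate 1 (0.14) or 2 (0.13) or NF1-MET;sgP53 vehicle replicate 2 (0.10), and the capmatinib call without NF1-MET capmatinib replicate 2 (0.12).

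The 2 main CIP/KIP genes therefore moved against each other in capmatinib. Per kb of exon, the ratio of *Cdkn1b* to *Cdkn1a* was 0.373 and 0.393 in NF1-MET vehicle, 1.36 and 1.34 in NF1-MET capmatinib, 1.27 and 1.44 in NF1-MET;sgP53 vehicle and 5.95 and 5.40 in NF1-MET;sgP53 capmatinib. NF1-MET in capmatinib and NF1-MET;sgP53 in vehicle overlapped in this ratio, the former through more *Cdkn1b* with less *Cdkn1a* and the latter through less *Cdkn1a*. The summed CIP/KIP level was 36.2 and 34.6 CPM per kb in NF1-MET vehicle and 36.1 and 36.6 in NF1-MET capmatinib, which overlapped, and 19.7 and 19.3 in NF1-MET;sgP53 vehicle and 27.0 and 27.1 in NF1-MET;sgP53 capmatinib. The CIP/KIP share of the family was 24.3% and 24.7%, 25.4% and 26.6%, 16.8% and 17.2%, and 19.5% and 20.1% in the same order of groups. The sums and shares are descriptions and were not tested. They and the ratio depend on the length used, for *Cdkn1a* 3553 bases of merged exon but 2080 in the longest transcript. With the longest transcripts *Cdkn1a* stayed above *Cdkn1b* in NF1-MET capmatinib and in NF1-MET;sgP53 vehicle. The summed CIP/KIP level was then lower in NF1-MET capmatinib than in NF1-MET vehicle, without overlap.

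**Figure D4:**
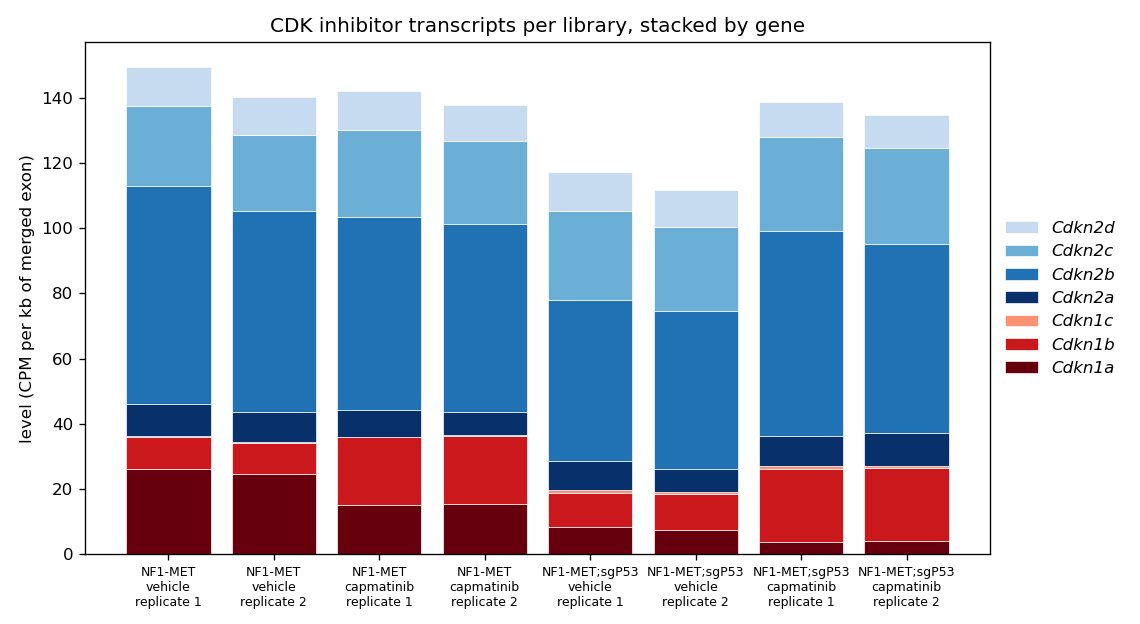
Level of the 7 CDK inhibitor genes in each of the 8 libraries (horizontal axis), stacked as CPM per kb of merged exon (vertical axis), with CIP/KIP genes in reds at the bottom and INK4 genes in blues. The whole stack is 140 to 149 in NF1-MET vehicle, 138 to 142 in NF1-MET capmatinib, 112 to 117 in NF1-MET;sgP53 vehicle and 135 to 139 in NF1-MET;sgP53 capmatinib, with *Cdkn2b* the widest band in every library.

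*Cdkn1c* (ENSMUSG00000037664, chr7:143458339-143461050, minus strand, 4 merged exons) encodes p57 and is imprinted, with expression from the maternal copy. It was near the limit of detection, with 26 and 31 counts in NF1-MET vehicle, 5 and 28 in NF1-MET capmatinib, 57 and 56 in NF1-MET;sgP53 vehicle and 50 and 34 in NF1-MET;sgP53 capmatinib. The 2 NF1-MET capmatinib libraries differed widely, and all NF1-MET;sgP53 libraries were above all NF1-MET libraries. The edited line was higher, with log2 fold changes of 0.96 in vehicle (95% interval 0.39 to 1.52, adjusted p = 0.0140) and 1.25 in capmatinib, the latter not called (95% interval 0.38 to 2.12, adjusted p = 0.0584). The vehicle call was lost with DESeq2's Wald test and without NF1-MET vehicle replicate 1 (0.90) or 2 (1.02) or NF1-MET;sgP53 vehicle replicate 1 (0.79). The capmatinib difference was called without NF1-MET capmatinib replicate 2 (2.68) or NF1-MET;sgP53 capmatinib replicate 2 (1.52), and with 5 other settings. It was 0.69 (adjusted p = 0.302) without NF1-MET capmatinib replicate 1, 0.93 (adjusted p = 0.186) without NF1-MET;sgP53 capmatinib replicate 1, and 1.35 (adjusted p = 0.599) with DESeq2's Wald test, not called in any of these. Capmatinib responses of −0.62 in NF1-MET cells and −0.32 in NF1-MET;sgP53 were not called. The first rested on single libraries, at −0.054 (adjusted p = 0.908) without NF1-MET capmatinib replicate 1 and −2.04, called, without replicate 2 of that group. It was also called with library totals (−0.81). An antisense gene, *Gm44732*, shares 625 exon bases with *Cdkn1c* and had 0 to 3 counts in the libraries. Whether the counting used strand is not given in the sources used here. Of 12 genes of the imprinted neighborhood, 6 were tested. *Cd81*, a tetraspanin, rose in capmatinib by log2 fold changes of 0.32 in NF1-MET cells and 0.54 in NF1-MET;sgP53, and *Nap1l4*, a histone chaperone, fell by 0.44 and 0.42 on the log2 scale.

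*Cdkn2a* (ENSMUSG00000044303, chr4:89274471-89294653, minus strand, 4 merged exons) encodes p16 and, from another first exon and reading frame, ARF. Its counts were 417 and 431 in NF1-MET vehicle, 267 and 320 in NF1-MET capmatinib, 368 and 348 in NF1-MET;sgP53 vehicle and 378 and 426 in NF1-MET;sgP53 capmatinib. The study describes the NF1-MET line as having lost *Cdkn2a* spontaneously, and shows whole-genome sequencing coverage of the locus, which is DNA and not RNA. The gene level counts are above 0 in all 8 libraries, and the table cannot show which exons the reads came from or separate p16 from ARF. On the CPM scale the groups stood at 11.5 and 10.8, 9.65 and 8.33, 10.7 and 8.15, and 10.7 and 11.7 in the same order.

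Capmatinib moved *Cdkn2a* in opposite directions in the 2 lines. It was lower in NF1-MET (log2 fold change −0.34, SE 0.0908, adjusted p = 0.00140) and higher in NF1-MET;sgP53 (0.27, SE 0.104, adjusted p = 0.0290), with an interaction of 0.59 (95% interval 0.29 to 0.90, adjusted p = 0.00997). The line difference was −0.27 in vehicle, not called (adjusted p = 0.0609) but called with the replicate block (adjusted p = 0.00888) or without the filter (adjusted p = 0.0170), and 0.34 in capmatinib (adjusted p = 0.0221). The calls of this gene rested on single libraries and on the test: with DESeq2's Wald test the rise in NF1-MET;sgP53 (0.25) and the capmatinib line difference (0.33) were not called, and with library totals the rise was 0.14. The rise was 0.46 and the line difference in vehicle was called, at −0.47, without NF1-MET;sgP53 vehicle replicate 1. Without replicate 2 of that group this line difference was −0.078 (adjusted p = 0.665). The fall in NF1-MET was not called without NF1-MET capmatinib replicate 2 (−0.22), the rise in NF1-MET;sgP53 without vehicle replicate 2 (0.07) or capmatinib replicate 2 (0.19) of that line, and the capmatinib line difference without NF1-MET capmatinib replicate 2 (0.22) or NF1-MET;sgP53 capmatinib replicate 2 (0.27). The interaction was 0.55 without NF1-MET vehicle replicate 1, 0.47 without NF1-MET capmatinib replicate 2 and 0.39 without NF1-MET;sgP53 vehicle replicate 2, in each case not called.

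*Cdkn2b* (ENSMUSG00000073802, chr4:89306299-89311039, minus strand, 2 merged exons), the neighbor of *Cdkn2a*, encodes p15, which TGF-β is known to induce. It stood at 93.0 and 85.3 CPM in NF1-MET vehicle, 82.0 and 79.8 in NF1-MET capmatinib, 68.5 and 67.4 in NF1-MET;sgP53 vehicle and 87.3 and 80.8 in NF1-MET;sgP53 capmatinib. The edited line in vehicle was below every other library, and the 2 capmatinib groups overlapped. *Cdkn2b* was lower in capmatinib in NF1-MET (log2 fold change −0.16, SE 0.0360, adjusted p = 2.58e-04) and higher in NF1-MET;sgP53 (0.31, SE 0.0374, adjusted p = 1.98e-07). The interaction was 0.45 (95% interval 0.33 to 0.56, adjusted p = 5.25e-06), with 93.0% of genes at or below it, and was called under every alternative and without any 1 library. The line difference was −0.41 in vehicle (adjusted p = 6.10e-08) and 0.06 in capmatinib (95% interval −0.02 to 0.13, adjusted p = 0.379). With library totals the rise in NF1-MET;sgP53 was 0.18 and not called, and without NF1-MET vehicle replicate 1 the fall in NF1-MET was −0.093 and still called.

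The locus of *Cdkn2a* and *Cdkn2b* held 40 protein-coding genes within 1 Mb on either side, *Cdkn2a* included, of which 25, interferon genes among them, had 0 counts in all libraries and 8 passed the filter. *Mtap*, which recycles methionine and lies next to *Cdkn2a*, was expressed in both lines, at 716 and 733 CPM in vehicle and 549 and 583 CPM in capmatinib as group means. It fell in capmatinib in both, by 0.40 and 0.33 on the log2 scale, and did not share the opposite signs of *Cdkn2a* and *Cdkn2b*. *Hacd4*, an enzyme of fatty acid elongation, rose from 3.46 to 32.7 CPM in NF1-MET and from 4.32 to 32.5 CPM in NF1-MET;sgP53.

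*Cdkn2c* (ENSMUSG00000028551, chr4:109660876-109667189, minus strand, 3 merged exons) encodes p18. It stood at 65.5 and 62.9 CPM in NF1-MET vehicle, 71.3 and 68.5 in NF1-MET capmatinib, 73.2 and 69.0 in NF1-MET;sgP53 vehicle and 77.9 and 78.5 in NF1-MET;sgP53 capmatinib. NF1-MET vehicle was lowest and NF1-MET;sgP53 capmatinib highest, and the other two groups overlapped. All 4 pairwise differences were called and small, with log2 fold changes of 0.10 (adjusted p = 0.0128) and 0.14 (adjusted p = 0.00137) for capmatinib in NF1-MET and NF1-MET;sgP53, and 0.13 (adjusted p = 0.0150) and 0.16 (adjusted p = 0.00266) for the line in vehicle and in capmatinib. The interaction was 0.02 (95% interval −0.08 to 0.12, adjusted p = 0.878). With library totals, none of the 4 was called and the first turned to −0.08. The first was also lost without NF1-MET vehicle replicate 2 (0.07) or NF1-MET capmatinib replicate 1 (0.08), and the line difference in vehicle without NF1-MET vehicle replicate 2 (0.10) or NF1-MET;sgP53 vehicle replicate 1 (0.09). DESeq2's Wald test called neither of these 2 (adjusted p = 0.108 and 0.138).

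*Cdkn2d* (ENSMUSG00000096472, chr9:21288410-21291407, minus strand, 3 merged exons) encodes p19. It was the steadiest member, at 18.98 and 18.18 CPM in NF1-MET vehicle, 19.2 and 17.4 in NF1-MET capmatinib, 18.4 and 17.9 in NF1-MET;sgP53 vehicle and 16.5 and 16.1 in NF1-MET;sgP53 capmatinib. The first 3 groups overlapped and the fourth was lower. Its 1 call was the capmatinib response in NF1-MET;sgP53 (log2 fold change −0.16, SE 0.0674, adjusted p = 0.0466), and leaving out any 1 of the 4 libraries of that comparison ended it, with values of −0.18 to −0.14. It was also lost with DESeq2's Wald test (−0.16) and the stricter filter (−0.15). The response in NF1-MET was −0.05 (95% interval −0.19 to 0.09), or −0.23 and called with library totals.

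Most of the kinases and cyclins on which the family acts were called lower with capmatinib. Of 15 tested cyclins and CDKs, 10 were called lower and 3 higher in NF1-MET and 11 lower and 3 higher in NF1-MET;sgP53, beside 34.7% and 35.5%, and 33.4% and 34.2%, of all genes. The medians were −0.55 and −0.57, beside 0.0020 and 0.0049 over all genes. *Ccnd1*, the D-type cyclin of CDK4 and CDK6, fell from 1432 to 538 CPM in NF1-MET (log2 fold change −1.43) and from 1241 to 456 CPM in NF1-MET;sgP53 (−1.44). *Cdk1*, the mitotic kinase, fell by 0.86 and 0.85 on the log2 scale. *Ccnd2*, another D-type cyclin, rose from 92.8 to 160 CPM in NF1-MET and from 157 to 212 CPM in NF1-MET;sgP53, and was higher in the edited line by 0.74 in vehicle (adjusted p = 3.13e-12) and 0.40 in capmatinib (adjusted p = 5.37e-08).

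Of 13 tested pocket proteins and E2F factors, which act downstream of the CDKs, 10 were called lower and 2 higher in NF1-MET and 11 lower and 2 higher in NF1-MET;sgP53, beside the same shares of all genes, with medians of −0.50 and −0.60. *E2f8*, an E2F target and repressor, fell from 143 to 33.5 CPM in NF1-MET (−2.11) and from 134 to 32.2 CPM in NF1-MET;sgP53 (−2.06). The pocket protein gene *Rbl1* fell by 0.61 and 0.80 on the log2 scale. *Rb1*, which encodes the retinoblastoma protein, rose from 27.2 to 41.1 CPM in NF1-MET (0.58) and from 25.3 to 44.0 CPM in NF1-MET;sgP53 (0.80).

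Of 12 genes in the turnover of CDK inhibitor proteins, 8 were called lower, 1 higher and 3 not in each line, where 34.7% and 33.4% of all genes were lower. The 1 called higher was *Ddb1*, an adaptor of a ubiquitin ligase, by log2 fold changes of 0.22 and 0.21. *Skp2* and *Cks1b*, which form the ubiquitin ligase receptor for p27, fell by 0.75 and 0.69 on the log2 scale in NF1-MET and by 0.94 and 0.74 in NF1-MET;sgP53. *Dtl*, the receptor for p21 of another ligase, fell by 0.71 and 0.78.

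Among 12 tested transcriptional activators of the family, 7 were called higher and 4 lower in NF1-MET and 6 higher and 5 lower in NF1-MET;sgP53, where 35.5% and 34.7%, and 34.2% and 33.4%, of all genes were. *Foxo3*, which is known to activate *Cdkn1b*, rose from 47.0 to 97.6 CPM in NF1-MET (log2 fold change 1.04) and from 49.2 to 92.2 CPM in NF1-MET;sgP53 (0.90). *Foxo1* rose from 18.0 to 27.2 CPM in NF1-MET (0.59) and from 17.9 to 29.8 CPM in NF1-MET;sgP53 (0.73), and *Klf6*, a factor known to act on *Cdkn1a*, rose by 0.92 and 0.71, with an interaction of −0.23 (adjusted p = 9.15e-05) that was −0.15 and not called with library totals. *Klf4*, another such factor, fell from 209 to 121 CPM in NF1-MET (−0.81) and from 171 to 106 CPM in NF1-MET;sgP53 (−0.69). Of 11 repressors, 6 were lower and 2 higher in NF1-MET and 7 lower and 3 higher in NF1-MET;sgP53, beside the same shares. *Tbx3*, a known repressor at the *Cdkn2a* locus, fell by 1.28 and 0.97 on the log2 scale, and the Polycomb genes *Ezh2* (by 0.72 and 0.72) and *Suz12* (by 0.61 and 0.68) fell as well. *Tbx3* was lower in the edited line in vehicle (−0.46, adjusted p = 7.16e-08), as was *Id1* (−0.69, adjusted p = 1.95e-08).

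All 18 genes of the cell cycle readout, a set of replication and mitosis genes, were called lower in capmatinib in NF1-MET and all 18 in NF1-MET;sgP53, where 34.7% and 33.4% of all genes were lower, with medians of −0.89 and −0.95. The replication helicase genes *Mcm7* (−1.22 and −1.29) and *Mcm3* (−1.01 and −1.20) were among the largest falls in both. Between the lines, 7 of the 18 were called higher in vehicle and the other 11 were not called, and in capmatinib 3 were called higher and 4 lower, with medians of 0.04 and −0.04. Of all genes, 10.9% were higher in vehicle, and 5.94% were higher and 6.34% lower in capmatinib. In the interaction 8 of the 18 were called lower and the other 10 were not called, beside 5.86% of all genes called lower, with *Rrm2*, a subunit of ribonucleotide reductase, at −0.24 (adjusted p = 3.99e-04), or −0.16 and not called with library totals. The family, by comparison, split in sign in every comparison.

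**Figure D5:**
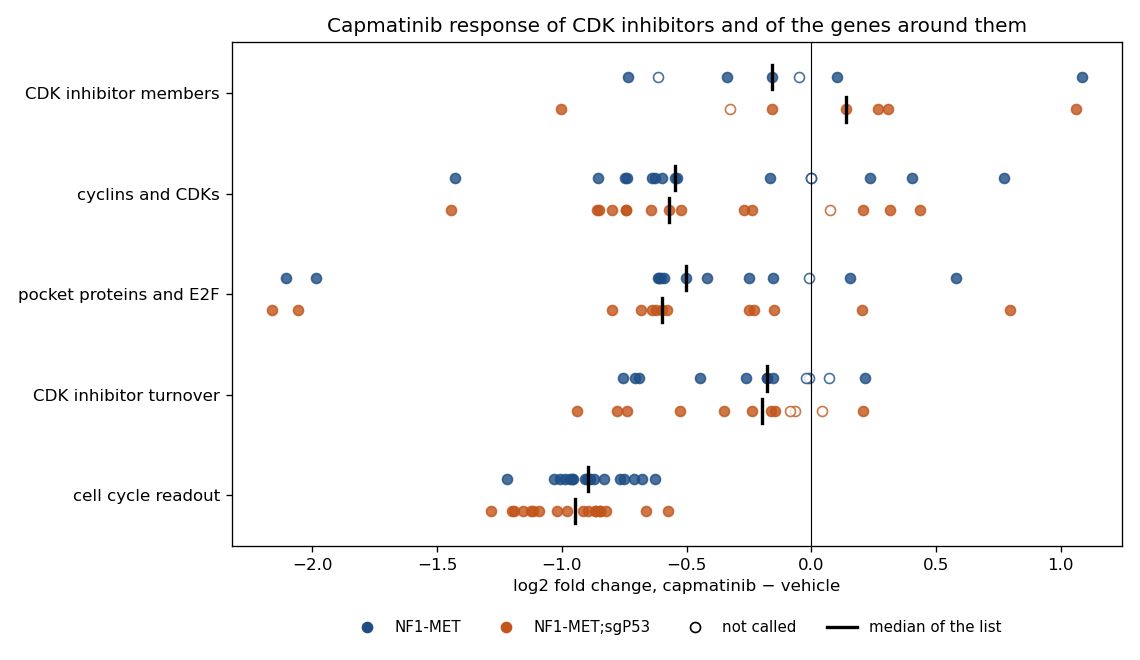
Log2 fold change with capmatinib (horizontal axis) for each tested gene of 5 lists (vertical axis), in NF1-MET (blue) and NF1-MET;sgP53 (orange). Open points were not called and black bars are list medians: the 18 cell cycle readout genes all lie below 0 in both lines, while the CDK inhibitor genes range from *Cdkn1a* at −0.73 and −1.001 to *Cdkn1b* at 1.08 and 1.06.

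The genes whose profile over the 8 libraries was most like that of a member were sought in the 8658 genes averaging 10 CPM or more, by the root mean square difference of centered log2 CPM. For *Cdkn1b* they were *Lims1* (0.0259, r = 1.00), *Anxa6* (0.0388, r = 1.00) and *Il17rc* (0.0393, r = 1.00), and 1810 genes had r over 0.95 with it, which for 2 treatments with tight replicates is a common profile. For *Cdkn1a* the nearest genes lay at larger distances, *Smoc2* at 0.368 (r = 0.979), *Gldn* at 0.460 (r = 0.893) and *Sorcs2* at 0.468 (r = 0.956), and 19 genes had r over 0.95. These depended on the minimum level: with candidates down to 1 CPM the nearest was *Eda2r* at 0.212 (r = 0.990), followed by *Cd80* at 0.274. Over all members, 14 of the 18 nearest genes stayed with that minimum. For *Cdkn2b* they were *Arid4b* (0.0586, r = 0.934), *Hsd17b11* (0.0602, r = 0.923) and *Zbtb7b* (0.0667, r = 0.900). For *Cdkn2a* they were *Pafah1b3* (0.113, r = 0.814), *Mphosph6* (0.120, r = 0.800) and *Timm17b* (0.140, r = 0.685), and no gene had r over 0.95. For *Cdkn2c* they were *Fam69a*, *Mtmr1* and *Abhd17b* (0.0299 to 0.0329), and for *Cdkn2d* *Tmem161a*, *Phf23* and *Aebp2* (0.0349 to 0.0358). The 8 points of a profile share libraries and fall into 4 groups, so these values only describe likeness. *Cdkn1c* was not compared, since a member had to average 1 CPM.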

How the data were processed

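The authors prepared poly(A) libraries, trimmed paired reads (Trim Galore 0.4.2), mapped them to mm10 with STAR 2.5.2b and deposited raw counts per gene from STAR, which were not filtered or normalized. The strand setting and annotation release are not given in the sources used here. All 8 libraries were used. The 7 members, the gene lists and the rule for named genes (all members, *Trp53*, *Met*, at most 3 called genes per list and comparison by size with at least 10 CPM in the higher group, and the 3 nearest profiles) were chosen with earlier results of these data known. *Sox10*, *S100b*, *Ptprc*, *Pecam1*, *Epcam*, *Bbc3*, *Bax*, *Fas*, *Rps27l*, *Calhm2*, *Sptbn4*, *Gm42418*, *Gm44732* and *Cd80*, and values of rule-named genes in further comparisons, were chosen after their values were seen.

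The filter kept 14497 genes that reached 10 counts in 2 or more libraries, as the study's methods describe, and each comparison required counts above 0 in 2 of its libraries. With R 4.3.3 and edgeR 4.0.16, each comparison was fitted on its own 4 libraries (the interaction on all 8) with TMM factors and the original (not bias-adjusted) quasi-likelihood F-test. P-values were adjusted by Benjamini-Hochberg over the genes of the comparison, and 0.05 was the threshold. Standard errors are the log2 fold change over the root of F. CPM used TMM factors over the 8 libraries. Exon lengths and positions came from GENCODE M21, which held 50376 of the identifiers, and promoter windows from RefSeq. The fit was tested on simulated data. Alternatives were DESeq2's Wald test (1.42.0) and size factors, library totals, other filters, the bias-adjusted test, 1 model, the replicate block, omission of *Gm42418*, and each library left out. Replicates, called biological in the labels, are duplicate wells of 1 line, so p-values measure only the spread between these samples, which may be technical.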

Additional observations from a re-analysis of the deposited data

Results flagged for a closer look

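The capmatinib response differed between the lines, by the test of the interaction, for 3 of the 7 members, where 9.71% of all genes were called. For *Cdkn2b* the log2 fold change was −0.16 in NF1-MET cells and 0.31 in NF1-MET;sgP53, with an interaction of 0.45 (adjusted p = 5.25e-06). The vehicle libraries of the edited line, at 68.5 and 67.4 CPM, were the lowest of the 8.

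For *Cdkn2a* the responses were −0.34 and 0.27, with an interaction of 0.59 (adjusted p = 0.00997). That call was lost without any 1 of 3 libraries, as given in the report, with values down to 0.39.

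For *Cdkn1a* both responses were falls, of −0.73 and −1.001, with an interaction of −0.28 (adjusted p = 0.0148). That call was lost without any 1 of 3 libraries, with library totals (−0.20, adjusted p = 0.611) and with DESeq2's Wald test (−0.27, adjusted p = 0.0695). The causes of these differences were not tested.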

How the results depend on the processing

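Of 308 values of members recomputed under other settings, 280 kept their direction and side of the threshold, 18 lost and 9 gained a call and 1 reversed. Of 168 with 1 library left out, 138 kept both, 26 lost and 4 gained a call. Library totals in place of TMM moved the median over all genes to (log2) −0.18 and −0.12 for capmatinib in NF1-MET and NF1-MET;sgP53, to 0.06 and 0.11 for the line in vehicle and capmatinib, and to 0.05 for the interaction, and members are best read relative to these shifts.

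With totals, capmatinib in NF1-MET called 1 member higher and 5 lower, beside 3508 genes higher and 6381 lower of 14496, with *Cdkn1c* −0.81, *Cdkn2d* −0.23 and, reversed, *Cdkn2c* −0.079, *Cdk6* −0.18, *Focad* −0.057 and *Phlda3* −0.075. In NF1-MET;sgP53 it called 3, 1 of them higher, with *Cdkn2a* 0.14, *Cdkn2b* 0.18, *Cdkn2c* 0.017 and, reversed, *Ccng1* −0.0096. The line in vehicle gave 3 members called, 1 higher, with *Cdkn1b* 0.19 and *Cdkn2c* 0.18, and in capmatinib *Cdkn1b* 0.23, *Cdkn1c* 1.37, *Cdkn2c* 0.28 and, reversed, *Mllt3* 0.0063, *Smad3* 0.016 and *Mcm2* 0.014. The interaction called 0 lower, with *Cdkn1a* −0.20.

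With DESeq2's Wald test, capmatinib called 1 member higher in NF1-MET (*Cdkn2c* 0.10, not called) and 1 lower in NF1-MET;sgP53 (*Cdkn2a* 0.25 and *Cdkn2d* −0.16, not called). The line in vehicle gave 2 called and 0 higher (*Cdkn1b* 0.13, *Cdkn1c* 0.97 and *Cdkn2c* 0.13, not called), the line in capmatinib 2 called and 1 higher (*Cdkn1b* 0.12 and *Cdkn2a* 0.33, not called), and the interaction 0 lower (*Cdkn1a* −0.27). The stricter filter called 1 lower in NF1-MET;sgP53 (*Cdkn2d* −0.15). *Cdkn1c* between lines in capmatinib was called with the stricter filter (1.24), no filter (1.24), the bias-adjusted test (1.25) and 1 model of all libraries (1.25), and *Cdkn2a* in vehicle with no filter (−0.27). Longest transcripts kept 18 of 28 places. The causes were not tested.

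Over all genes, totals gave 2023 calls for the line in vehicle (743 lower), 666 in capmatinib and 315 for the interaction, and 3260 higher for capmatinib in NF1-MET;sgP53. DESeq2 gave 1933, 870 and 894 for the line in vehicle, in capmatinib and the interaction, beside 3355, 1778 and 1407. Without *Gm42418*, 873 were higher and 612 lower in the interaction, beside 558 and 849.

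With each library left out in turn, the values that crossed the threshold are given as ranges. For capmatinib in NF1-MET they were *Cdkn1c* −2.04 to −0.054, *Cdkn2a* −0.44 to −0.22, *Cdkn2c* 0.075 to 0.14 and members called higher 1 to 2. For capmatinib in NF1-MET;sgP53 they were *Cdkn2a* 0.070 to 0.46, *Cdkn2d* −0.18 to −0.14 and members called lower 1 in each case. For the line in vehicle they were *Cdkn1b* 0.10 to 0.17, *Cdkn1c* 0.79 to 1.12, *Cdkn2a* −0.47 to −0.078, *Cdkn2c* 0.087 to 0.17, members called higher 0 to 2 and members called 2 to 4. For the line in capmatinib they were *Cdkn1b* 0.11 to 0.12, *Cdkn1c* 0.69 to 2.68 and *Cdkn2a* 0.22 to 0.43. For the interaction they were *Cdkn1a* −0.35 to −0.22, *Cdkn2a* 0.39 to 0.79, members called higher 1 to 2 and members called lower 0 to 1.

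No label ties a replicate number to a shared batch or day. Replicate differences correlated at −0.103 to 0.217 between groups, highest between NF1-MET;sgP53 vehicle and capmatinib, so a pairing of some groups was neither assumed nor excluded. With the replicate block, 10141, 9866, 3994, 1777 and 1524 genes were called in the 5 comparisons, beside 10169, 9804, 3355, 1778 and 1407 without it, and *Cdkn2a* was called between lines in vehicle (−0.27, adjusted p = 0.00888), with no other member's call changed. The crossed pairing of the line in capmatinib, chosen after seeing the data, gave 2051 genes.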
